A study of Mus musculus with 8 samples.

Results

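The genes described here encode plasma proteins of the complement, coagulation and fibrinolytic systems, together with a pair of related fetuins, in mouse liver. They were chosen by name from a list of 47 gene symbols, each of which was found in the deposited table of 21358 genes. Of these, 24 belong to complement, 21 to coagulation and fibrinolysis, and 2 are the fetuins Ahsg and Fetub. In the deposited annotation 42 of the 47 carry the KEGG pathway for complement and coagulation cascades, and Cfp, Proz, Hrg, Ahsg and Fetub do not. Livers were profiled by RNA sequencing in a mouse model of metabolic dysfunction after 22 weeks of fasting every other day, a regimen shared by both groups. The starvation glucose group (SG, libraries 101, 103, 104 and 105) is compared with the feeding glucose group (FG, libraries 93, 94, 95 and 96), 4 libraries each. The question is how hepatic transcripts differ when glucose is given in the starved or in the fed state. Strain, sex, age, glucose dose and time of tissue collection are missing from the labels, so an imbalance in any of them cannot be told apart from the groups. Nothing in the labels ties each library to its own animal, and p-values therefore describe library-to-library spread, which may be technical.

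Most plasma complement and clotting proteins are made by hepatocytes and secreted. Complement is started by recognition proteins (C1q in the classical pathway, mannose-binding lectins in the lectin pathway), whose proteases build convertases that cleave C3 and then C5, after which C5 to C9 assemble a pore in the target membrane. Coagulation runs through serine protease zymogens, several of them dependent on vitamin K, to thrombin, which turns fibrinogen into fibrin; plasmin dissolves the clot. C1q and properdin are exceptions in that macrophages and other myeloid cells make them, and factor VIII comes chiefly from sinusoidal endothelial cells.

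Promoter sequences are shown for the 4 members with the smallest adjusted p (C8b, F11, C9 and Mbl2). Each spans 300 bases, mostly upstream of a RefSeq start site in GRCm38.p6, 5′ to 3′ on the gene's strand. Capitals mark matches on either strand to TTGCNNAA, a core bound by C/EBP factors.
C8b (chr4:104766067-104766366, plus strand): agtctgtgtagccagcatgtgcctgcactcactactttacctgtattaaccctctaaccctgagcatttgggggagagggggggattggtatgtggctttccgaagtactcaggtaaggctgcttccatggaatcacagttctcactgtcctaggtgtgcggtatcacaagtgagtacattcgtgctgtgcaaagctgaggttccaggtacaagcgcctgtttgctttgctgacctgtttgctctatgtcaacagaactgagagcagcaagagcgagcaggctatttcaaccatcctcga
C9 (chr15:6445096-6445395, plus strand): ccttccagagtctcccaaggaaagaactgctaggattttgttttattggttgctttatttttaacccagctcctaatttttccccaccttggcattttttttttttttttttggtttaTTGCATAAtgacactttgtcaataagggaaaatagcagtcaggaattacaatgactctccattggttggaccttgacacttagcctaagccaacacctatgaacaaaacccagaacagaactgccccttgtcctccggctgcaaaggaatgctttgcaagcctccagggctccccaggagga
F11 (chr8:45261982-45262281, minus strand): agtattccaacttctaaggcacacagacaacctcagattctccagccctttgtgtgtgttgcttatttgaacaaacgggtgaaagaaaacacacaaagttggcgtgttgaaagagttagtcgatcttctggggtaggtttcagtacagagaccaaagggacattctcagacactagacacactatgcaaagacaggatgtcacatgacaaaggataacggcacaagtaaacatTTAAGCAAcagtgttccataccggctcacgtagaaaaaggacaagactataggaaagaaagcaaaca
Mbl2 (chr19:30232678-30232977, plus strand): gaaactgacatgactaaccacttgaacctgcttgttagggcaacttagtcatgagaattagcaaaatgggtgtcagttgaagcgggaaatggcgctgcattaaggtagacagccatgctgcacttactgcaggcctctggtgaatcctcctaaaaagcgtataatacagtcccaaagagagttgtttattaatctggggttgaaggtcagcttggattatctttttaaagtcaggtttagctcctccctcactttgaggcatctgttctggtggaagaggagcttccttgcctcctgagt

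The RefSeq promoter table held 37 of the 47 members. C/EBP cores lay in a promoter of 13 of the 37, or 35.1%. Counted by single promoters, the share was 10.8% of all 32851 of that length in the table and 9.36% of those of tested genes. Median GC content was 49.7% in the 40 member promoters, 52.7% in all promoters and 60.7% in those of tested genes. The part of base composition in these shares was not tested. Of the promoters shown above, C9 holds a core at -132 and F11 one at -17 from the start site. The strict site of HNF4, CAAAGTCCA, was in 0 of the 37 members and in 0.475% of all promoters. The site is so rare that its absence from 37 members says little. C8b and Mbl2 hold none of these letters in the window shown. The motifs were chosen with the sequences in view, and matches are a description of letters only.

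More members were higher than lower in SG livers, with the largest rises in late complement genes and in factor XI. With limma on log2(FPKM + 1) and Benjamini-Hochberg adjustment over all 9867 tested genes, 10 of the 47 members rose in SG and 1 fell at an adjusted p below 0.05. FPKM are fragment counts scaled to gene length and to the library total. All 47 members passed the filter of at least 1 FPKM in at least 4 libraries. Members called in either direction made up 23.4%, close to the 19.4% of all tested genes. By direction, 21.3% of members rose against 3.73% of all tested genes, and 2.13% of members fell against 15.6% of all tested genes. Among the members 36 had a log2 fold change above 0 (76.6%), against 30.1% of all tested genes. No test of these shares was made, since the members were chosen with earlier results of these data known. Groups did not overlap in 16 members (34.0%), 13 of them higher and 3 lower in SG, against 26.1% of all tested genes (4.35% higher and 21.8% lower).

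Complement and coagulation gave similar counts and medians, and the difference between them was not tested. Of the complement genes 5 of 24 rose (Hc, C8a, C8b, C9 and Masp2) and 1 fell (Mbl2), with a median log2 fold change of 0.09. Of the coagulation and fibrinolysis genes 5 of 21 rose (F11, F13b, Klkb1, Plg and Hrg) and none fell, with a median of 0.08. The median of all tested genes was -0.135. That median moved to 0.006 after median-ratio scaling of the libraries, and 7 complement genes and 6 coagulation genes were then called, all higher in SG. After quantile normalization 4 complement genes rose and 1 fell, and 2 coagulation genes rose and 2 fell. Coagulation calls were 4 higher and 2 lower after rescaling without the most abundant genes, and 5 higher and 2 lower with library weights. Over all tested genes median-ratio scaling gave 545 higher and 499 lower calls, in place of 368 higher and 1544 lower. Neither fetuin was called as reported, and Ahsg was called higher in SG after median-ratio scaling. Of the 48 other genes with the KEGG annotation, 24 were tested, of which 6 rose and 0 fell, with a median log2 fold change of 0.16. Of all tested genes 3.73% rose and 15.6% fell. The count for these 24 was not repeated under other scalings or with libraries left out.

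**Figure D1:**
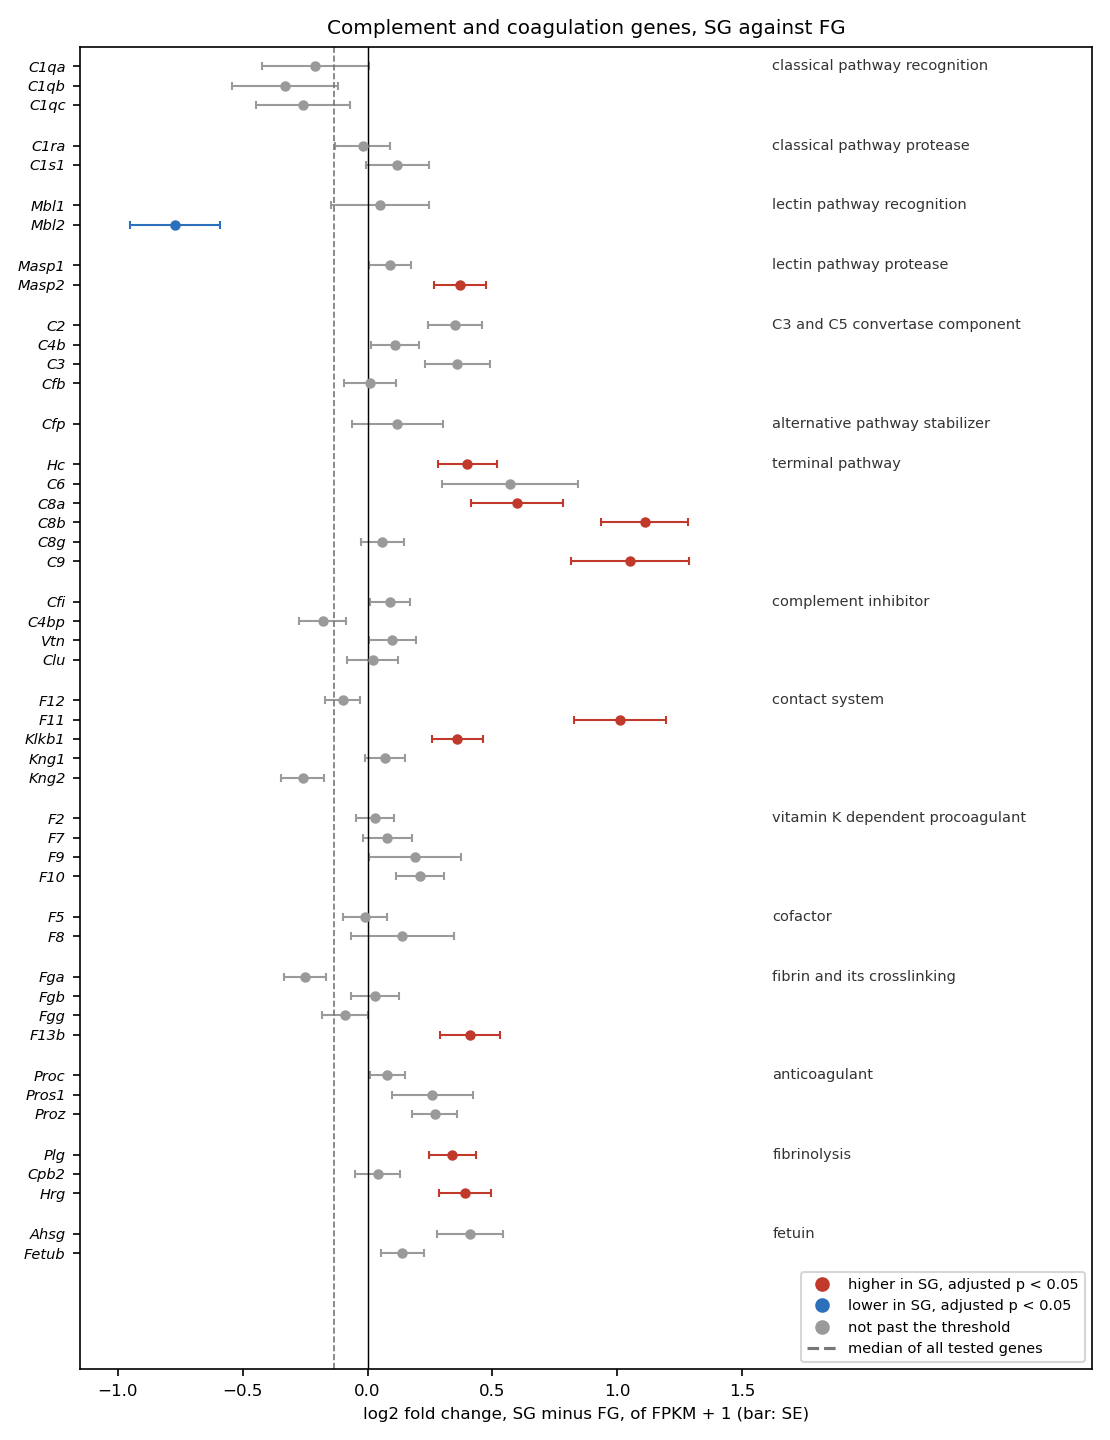
Log2 fold change of FPKM + 1, SG minus FG, for the 47 members grouped by role. Points are limma estimates from 4 SG and 4 FG libraries, bars are standard errors, and the dashed line is the median of all tested genes at -0.135. C8b, C9 and F11 lie farthest to the right, and Mbl2 is the only member called lower in SG.

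The terminal pathway, whose products form the membrane attack complex, held 4 of the 10 members that rose. C8b encodes the beta chain of C8, and its FPKM was 224, 248, 172 and 195 in SG libraries 101, 103, 104 and 105, against 87.4, 103, 73.6 and 127 in FG libraries 93, 94, 95 and 96. Every SG library lay above every FG library. The log2 fold change was 1.11 (SE 0.174, limma adjusted p = 0.00568). This was the smallest adjusted p of the 47 members. An exact two-sided permutation test of 4 against 4 gave p = 0.0286, the smallest that the 70 assignments allow.

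C9, which polymerizes to line the pore, had 162, 234, 145 and 196 FPKM in SG livers, against 67.2, 106, 64.4 and 127 FPKM in FG livers (same order of libraries). The groups did not overlap, and the nearest values were SG 104 and FG 96. C9 rose by a log2 fold change of 1.05 (SE 0.237, limma adjusted p = 0.0186). C8a, the alpha chain of C8, had 175, 241, 187 and 201 FPKM in SG livers, against 121, 161, 93.3 and 163 FPKM in FG livers. FG 95 was the lowest library and SG 103 the highest, with a log2 fold change of 0.60 (SE 0.184, limma adjusted p = 0.0488). Hc, which encodes complement C5, had 155, 198, 153 and 167 FPKM in SG livers, against 121, 139.5, 108 and 139 FPKM in FG livers. All SG values exceeded all FG values, with a log2 fold change of 0.40 (SE 0.119, limma adjusted p = 0.0431).

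The remaining terminal members were not called. C6 had 78.2, 103, 67.9 and 49.3 FPKM in SG livers and 43.8, 57.2, 31.2 and 69.8 FPKM in FG livers. These ranges overlapped widely (log2 fold change 0.57, SE 0.271, limma adjusted p = 0.169). C8g, the lipocalin-like gamma chain of C8, averaged 173 ± 12.9 FPKM in SG livers and 167 ± 9.80 FPKM in FG livers (SD, n = 4 each; limma adjusted p = 0.666). C8b was at 1.05 to 1.39 times the FPKM of C8g in SG libraries and at 0.426 to 0.744 times in FG libraries. C8a was at 0.926 to 1.35 times C8g in SG and at 0.541 to 0.958 times in FG, and this ratio overlapped between groups. These ratios do not depend on scaling between libraries; the pairs were chosen after their values were seen. C7, the remaining pore component, averaged 0.674 ± 0.110 FPKM in SG and 0.515 ± 0.139 FPKM in FG livers, below the filter.

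**Figure D2:**
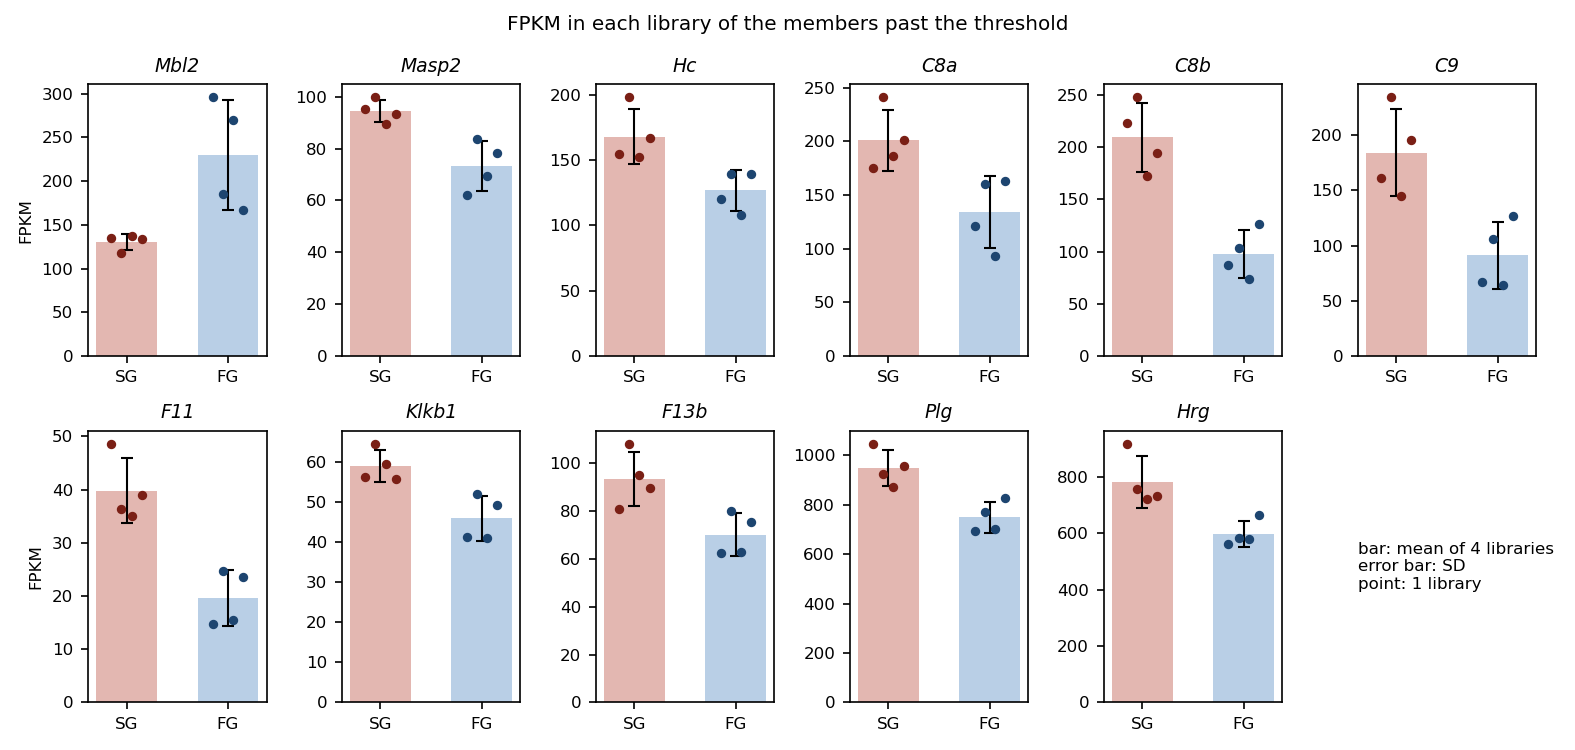
FPKM of the 11 members past the threshold, with SG left of FG. Bars are means of 4 libraries, error bars are SD, and points are libraries. For C8b the SG libraries lie between 172 and 248 and the FG libraries between 73.6 and 127; in every panel the points of both groups are separate.

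In the lectin pathway, one recognition gene fell and one protease gene rose. Mbl2, which encodes mannose-binding lectin C, had 135, 117, 137 and 134 FPKM in SG livers, against 296, 186, 270.2 and 167 FPKM in FG livers. The SG libraries lay close together below all FG libraries, while the FG libraries spread widely, with 93 and 95 highest. The log2 fold change of Mbl2 was -0.77 (SE 0.179, limma adjusted p = 0.0202). It did not pass with median-ratio scaling (limma adjusted p = 0.0552) and without SG 103 or FG 93. Mbl1, which encodes mannose-binding lectin A, averaged 35.6 ± 11.02 FPKM in SG and 33.6 ± 5.28 FPKM in FG livers (limma adjusted p = 0.876). FPKM of Mbl2 was 2.29 to 5.28 times that of Mbl1 in SG libraries and 5.34 to 8.98 times in FG libraries.

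Masp2, the protease that cleaves C4 and C2 for the lectin pathway, had 95.2, 99.8, 89.7 and 93.3 FPKM in SG livers, against 61.97, 83.7, 69.5 and 78.2 FPKM in FG livers. SG values again lay above all FG values (log2 fold change 0.37, SE 0.103, limma adjusted p = 0.0364). Masp2 exons overlap those of Tardbp on the opposite strand, and the use of strand in counting is unstated in these sources, so part of these reads cannot be assigned with certainty. Tardbp was at 8.40 ± 2.41 FPKM in SG and 5.30 ± 2.05 FPKM in FG livers (limma adjusted p = 0.159). Masp1, the companion protease, averaged 17.2 ± 1.46 FPKM in SG and 16.1 ± 0.263 FPKM in FG livers (limma adjusted p = 0.468).

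The convertase genes were not called, although all 4 had fold changes above 0. C3, the central component, had 1712, 1416, 1404 and 1810 FPKM in SG livers and 1346, 1043, 1404 and 1162 FPKM in FG livers (log2 fold change 0.36, SE 0.129, limma adjusted p = 0.0815). FG 95 reached the level of the lowest SG libraries. C2, the protease of the classical convertase, had 61.00, 54.2, 47.5 and 45.7 FPKM in SG livers and 38.2, 37.5, 43.00 and 43.8 FPKM in FG livers. The groups did not overlap, and C2 missed the threshold (log2 fold change 0.35, SE 0.109, limma adjusted p = 0.0545). C2 and C3 were both called higher in SG after median-ratio scaling. Cfb, the protease of the alternative convertase, was at 379 ± 41.8 FPKM in SG and 377 ± 34.2 FPKM in FG livers (limma adjusted p = 0.971). C4b averaged 194 ± 18.8 FPKM in SG and 179 ± 12.8 FPKM in FG livers (limma adjusted p = 0.429), and its near-identical copy C4a, which can share its reads, was not analysed here. C2 and Cfb lie 87 bases apart and share a read-through transcript in GENCODE vM21, so reads may be split between them.

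None of the 4 complement inhibitors was called. Cfi, the protease that inactivates C3b and C4b, averaged 278 ± 20.4 FPKM in SG and 260.1 ± 11.5 FPKM in FG livers. C4bp, its cofactor, averaged 251 ± 26.3 FPKM in SG and 283 ± 13.9 FPKM in FG livers (log2 fold change -0.18, limma adjusted p = 0.209). Vtn (vitronectin) and Clu (clusterin) keep the assembling pore from membranes. Vtn averaged 1158 ± 111 FPKM in SG and 1081 ± 59.6 FPKM in FG livers (limma adjusted p = 0.49). Clu averaged 596 ± 64.7 FPKM in SG and 588 ± 50.5 FPKM in FG livers (limma adjusted p = 0.928). The classical proteases C1ra and C1s1 did not pass either (limma adjusted p = 0.93 and 0.524). Their paralogs C1rb and C1s2 were below the filter.

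The 3 chains of C1q moved together between libraries and were not called. C1qa had 51.4, 36.7, 27.4 and 25.3 FPKM in SG livers and 42.2, 32.8, 47.3 and 36.2 FPKM in FG livers (log2 fold change -0.21, SE 0.214, limma adjusted p = 0.52). C1qb and C1qc had log2 fold changes of -0.33 and -0.26 (limma adjusted p = 0.299 and 0.353). Summed over the 3 chains, FPKM was 159, 114, 93.1 and 84.7 in SG libraries and 141, 114, 168 and 112 in FG libraries. SG 101 and FG 95 were the highest of their groups. The same libraries led in the summed FPKM of 12 Kupffer cell and macrophage markers, which was 384, 238, 196 and 188 in SG and 290.3, 227, 348 and 215 in FG. None of the 12 markers was called and none was at 0 (ranges of the sum 188 to 384 in SG and 215 to 348 in FG). Cfp (properdin), which stabilizes the alternative convertase, also peaked in these libraries, at 20.5 FPKM in SG 101 and 16.3 FPKM in FG 95, and was not called (limma adjusted p = 0.677). The part of macrophage content in these values was not tested. In bulk tissue, fewer cells of a type and less RNA per cell cannot be told apart.

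**Figure D3:**
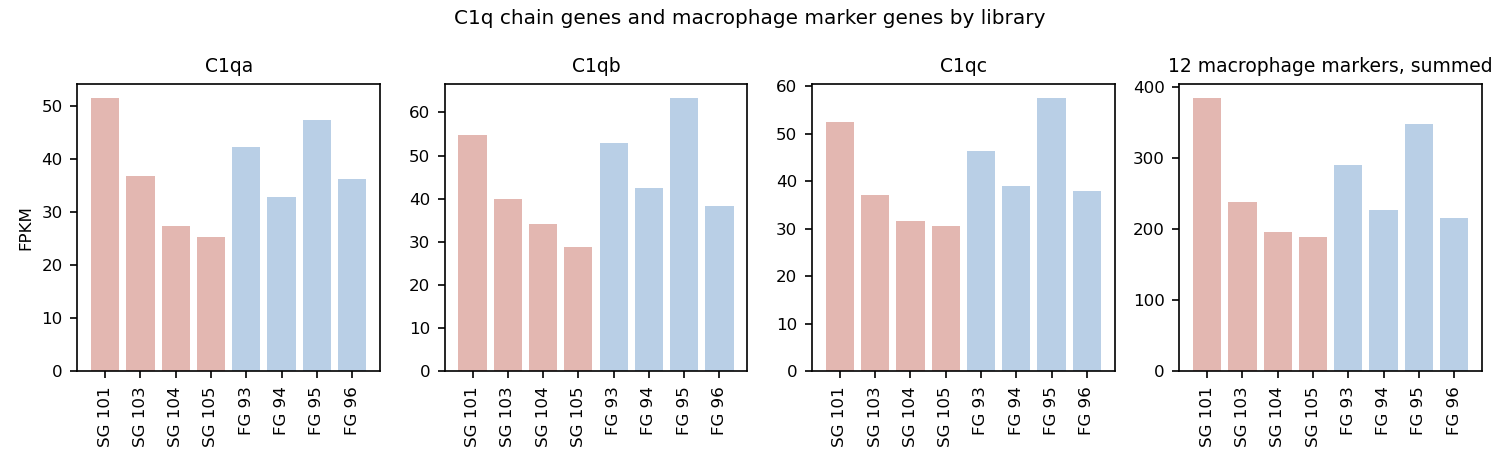
FPKM of C1qa, C1qb and C1qc and the summed FPKM of 12 macrophage marker genes, one bar per library, SG left of FG. The summed markers range from 188 to 384 in SG and from 215 to 348 in FG, and SG 101 and FG 95 are the highest of their groups in all 4 panels.

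Within the contact system, which starts coagulation on charged surfaces and releases bradykinin, F11 and Klkb1 rose. F11, the zymogen of factor XIa, had 48.6, 36.4, 35.1 and 39.0 FPKM in SG livers, against 14.7, 24.7, 15.4 and 23.6 FPKM in FG livers. No SG library overlapped an FG library, and FG 93 and FG 95 were lowest. The log2 fold change was 1.01 (SE 0.184, limma adjusted p = 0.00912), the largest rise among the clotting genes. Klkb1, which encodes plasma prekallikrein, had 56.4, 64.6, 59.5 and 55.9 FPKM in SG livers, against 41.5, 52.0, 41.1 and 49.5 FPKM in FG livers. Its groups were also separate (log2 fold change 0.36, SE 0.102, limma adjusted p = 0.0385). A gene model on the same strand, Gm45753, overlaps Klkb1 exons in GENCODE vM21, so its counts are less certain.

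F12, the factor that starts contact activation, averaged 217 ± 7.05 FPKM in SG and 233 ± 8.24 FPKM in FG livers (limma adjusted p = 0.322). F11 was at 0.165 to 0.214 times the FPKM of F12 in SG libraries and at 0.0631 to 0.109 times in FG libraries, with no overlap. The kininogen genes, which carry the bradykinin sequence, are close paralogs whose reads may be shared. Kng1 averaged 651 ± 41.9 FPKM in SG and 622 ± 29.8 FPKM in FG livers (limma adjusted p = 0.599). Kng2 had 90.5, 83.8, 89.0 and 92.5 FPKM in SG livers and 120.2, 98.6, 106 and 104 FPKM in FG livers. Its groups did not overlap, and it missed the threshold (log2 fold change -0.26, SE 0.0847, limma adjusted p = 0.0567).

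The vitamin K dependent procoagulants and the cofactors F5 and F8 were not called. F2 (prothrombin) averaged 681 ± 34.8 FPKM in SG and 669 ± 28.2 FPKM in FG livers. F7, F9 and F10, the other vitamin K dependent zymogens, had log2 fold changes of 0.08, 0.19 and 0.21 (limma adjusted p = 0.601, 0.498 and 0.149). F5, the cofactor of the prothrombin-cleaving complex, averaged 104 ± 3.88 FPKM in SG and 105 ± 10.05 FPKM in FG livers (limma adjusted p = 0.929). F8, the cofactor of factor IX and the least abundant member, had 1.003, 1.83, 1.96 and 1.61 FPKM in SG livers and 1.53, 2.06, 0.587 and 1.41 FPKM in FG livers. Its lowest value rested on 305 fragments, and the groups overlapped (limma adjusted p = 0.649). Sinusoidal endothelial markers, from cells known to make F8, summed to 110.1 to 123 FPKM in SG and 134 to 161 FPKM in FG libraries, and 2 of 10 fell (Clec4g and Fcgr2b), against 15.6% of all tested genes. Neither passed after median-ratio scaling (limma adjusted p = 0.0542 and 0.369), and Fcgr2b was called in 4 of 18 alternatives. Clec4g averaged 34.7 FPKM in SG and 51.6 FPKM in FG livers, and Fcgr2b 27.1 and 33.3 FPKM, so both weigh on the sum. The other 8 markers were not called. Of the 10 log2 fold changes 3 were above 0 and 7 below, with Stab1 at 0.03 and Stab2 at -0.01. None of the 10 markers was at 0 FPKM, and the part of endothelial content in the F8 values was not tested.

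The fibrinogen chains differed among themselves. Fga, the alpha chain, had 889, 949, 808 and 931 FPKM in SG livers and 1101, 1040, 1006 and 1099 FPKM in FG livers. All SG values lay below all FG values, without passing the threshold (log2 fold change -0.25, SE 0.0838, limma adjusted p = 0.066). Fgb, the beta chain, averaged 2324 ± 263 FPKM in SG and 2266 ± 76.2 FPKM in FG livers (limma adjusted p = 0.843). Fgg, the gamma chain, averaged 1157 ± 114 FPKM in SG and 1231 ± 42.5 FPKM in FG livers (limma adjusted p = 0.499). Within libraries, Fga was at 0.346 to 0.417 times Fgb in SG and at 0.448 to 0.489 times in FG. After quantile normalization Fga and Fgg were called lower in SG. After median-ratio scaling neither was called (limma adjusted p = 0.643 for Fga and 0.635 for Fgg). Over the 18 alternatives the log2 fold change ran from -0.50 to -0.07 for Fga and from -0.36 to 0.08 for Fgg. F13b, the carrier subunit of the fibrin-crosslinking enzyme, had 81.0, 108, 94.9 and 89.6 FPKM in SG livers, against 62.3, 79.9, 62.8 and 75.4 FPKM in FG livers. The groups came near each other at SG 101 and FG 94 without crossing (log2 fold change 0.41, SE 0.119, limma adjusted p = 0.0417).

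Of the fibrinolytic genes, Plg and Hrg rose. Plg (plasminogen) had 1045, 925, 871 and 956 FPKM in SG livers, against 692, 772, 703 and 825 FPKM in FG livers. Groups were separate, with SG 101 highest (log2 fold change 0.34, SE 0.0940, limma adjusted p = 0.0344). Hrg, the histidine-rich glycoprotein that binds plasminogen and heparin, had 917, 757, 721 and 733 FPKM in SG livers, against 560.4, 581, 581 and 664 FPKM in FG livers. SG 101 was again highest and all SG values exceeded those of FG (log2 fold change 0.39, SE 0.103, limma adjusted p = 0.032). After quantile normalization neither passed, and their log2 fold changes were 0.05 for Plg (limma adjusted p = 0.684) and 0.24 for Hrg (limma adjusted p = 0.115). Cpb2, the carboxypeptidase that slows fibrinolysis, averaged 218 ± 14.6 FPKM in SG and 212 ± 18.8 FPKM in FG livers (limma adjusted p = 0.777). Exons of Plg touch those of Slc22a3 on the opposite strand, which was at 1.23 ± 0.240 FPKM in SG and 0.811 ± 0.185 FPKM in FG livers.

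Anticoagulant genes were not called. Proc (protein C), which inactivates the cofactors, averaged 222 ± 8.80 FPKM in SG and 209 ± 6.98 FPKM in FG livers (limma adjusted p = 0.436). Pros1, its cofactor protein S, averaged 21.8 ± 5.80 FPKM in SG and 17.6 ± 1.05 FPKM in FG livers (limma adjusted p = 0.279). Proz (protein Z), a cofactor for inhibition of factor Xa, had 124.5, 125.4, 124.4 and 112.5 FPKM in SG livers and 89.0, 112.4, 100.7 and 100.8 FPKM in FG livers (log2 fold change 0.27, SE 0.0902, limma adjusted p = 0.0621). Its groups did not overlap, although SG 105 and FG 94 nearly met.

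The fetuins are secreted inhibitors related in structure to the kininogens. Ahsg (fetuin-A) was the most abundant member, with 6258, 4718, 5435 and 7164 FPKM in SG livers and 4387, 4098, 4688 and 4384 FPKM in FG livers. The groups did not overlap, but SG 103 and FG 95 were close, and the limma adjusted p was 0.0578 (log2 fold change 0.41, SE 0.132). Fetub (fetuin-B) averaged 274 ± 16.1 FPKM in SG and 248 ± 18.8 FPKM in FG livers (limma adjusted p = 0.267). Members spanned more than 3 orders of magnitude in FPKM, from F8 at a mean of 1.499 over the 8 libraries to Ahsg at 5142. Summed FPKM of the complement genes made up 1.28 ± 0.0794% of all FPKM in SG and 1.17 ± 0.0424% in FG (SD, n = 4 each). For coagulation and fibrinolysis the sums were 1.86 ± 0.110% in SG and 1.83 ± 0.0593% in FG.

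Several members are neighbours: 23 of the 47 lie in 8 clusters with at most 200 kb between one gene and the next. C8b (chr4:104766317-104804548, GRCm38.p6) and C8a (chr4:104815679-104876487) lie 11130 bases apart, and both rose, C8b by 1.11 and C8a by 0.60 on the log2 scale. F11 (chr8:45240659-45262055) and Klkb1 (chr8:45266688-45294835) lie 4632 bases apart, and both rose, F11 by 1.01 and Klkb1 by 0.36. In the chromosome 16 cluster of Ahsg, Fetub, Hrg, Kng2 and Kng1, only Hrg was called, with log2 fold changes from -0.26 for Kng2 to 0.41 for Ahsg. The fibrinogen cluster on chromosome 3, the C1q cluster on chromosome 4, the C4b, Cfb and C2 cluster on chromosome 17, the C1ra and C1s1 pair on chromosome 6, and the F7, F10 and Proz cluster on chromosome 8 held no called member.

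**Figure D4:**
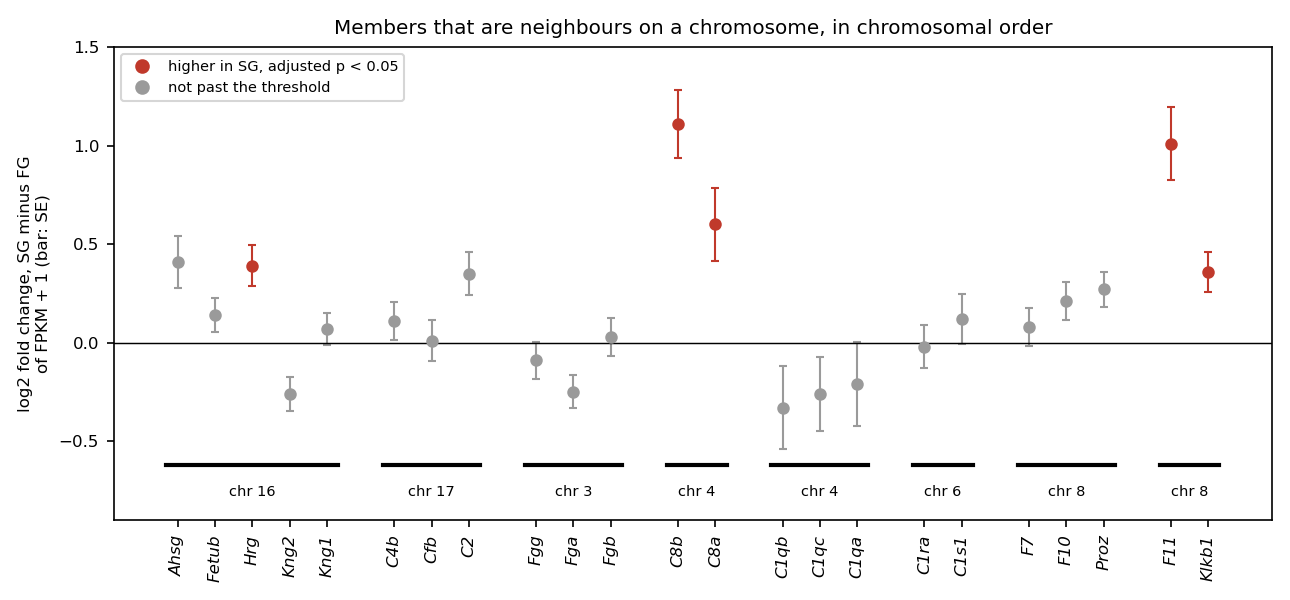
Log2 fold changes of FPKM + 1 (SG minus FG, bars are SE) of the 23 members in 8 clusters, drawn in chromosomal order without distances. Both genes of the C8b and C8a pair and of the F11 and Klkb1 pair are called higher in SG, and Hrg is the only other called gene shown.

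Most of these calls were lost in some fits with 1 library left out, while the folds stayed near their reported size. In each of the 11 called members, FG 93 and FG 95 were the pair of FG libraries farthest from SG, while over all 1912 called genes this held for 47.6%. With any 1 library left out in turn, C8b and F11 kept the call in 8 of 8 fits, and C9 and Mbl2 in 6 of 8. C9 lost it without FG 93 or SG 105. For the other 7 called members the call held in 1 to 3 of the 8 fits. All 7 lost it without SG 103, SG 104, SG 105, FG 93 or FG 95. Their log2 fold changes in the 8 fits lay between 0.29 and 0.70, against 0.34 to 0.60 with all libraries. Over all tested genes the calls also dropped in those 5 fits, to between 834 and 1102 of the 1912. The members called numbered 2 without FG 93, 3 without SG 105, and 4 without FG 95, SG 103 or SG 104. No called member changed sign under any of the 18 alternatives.

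**Figure D5:**
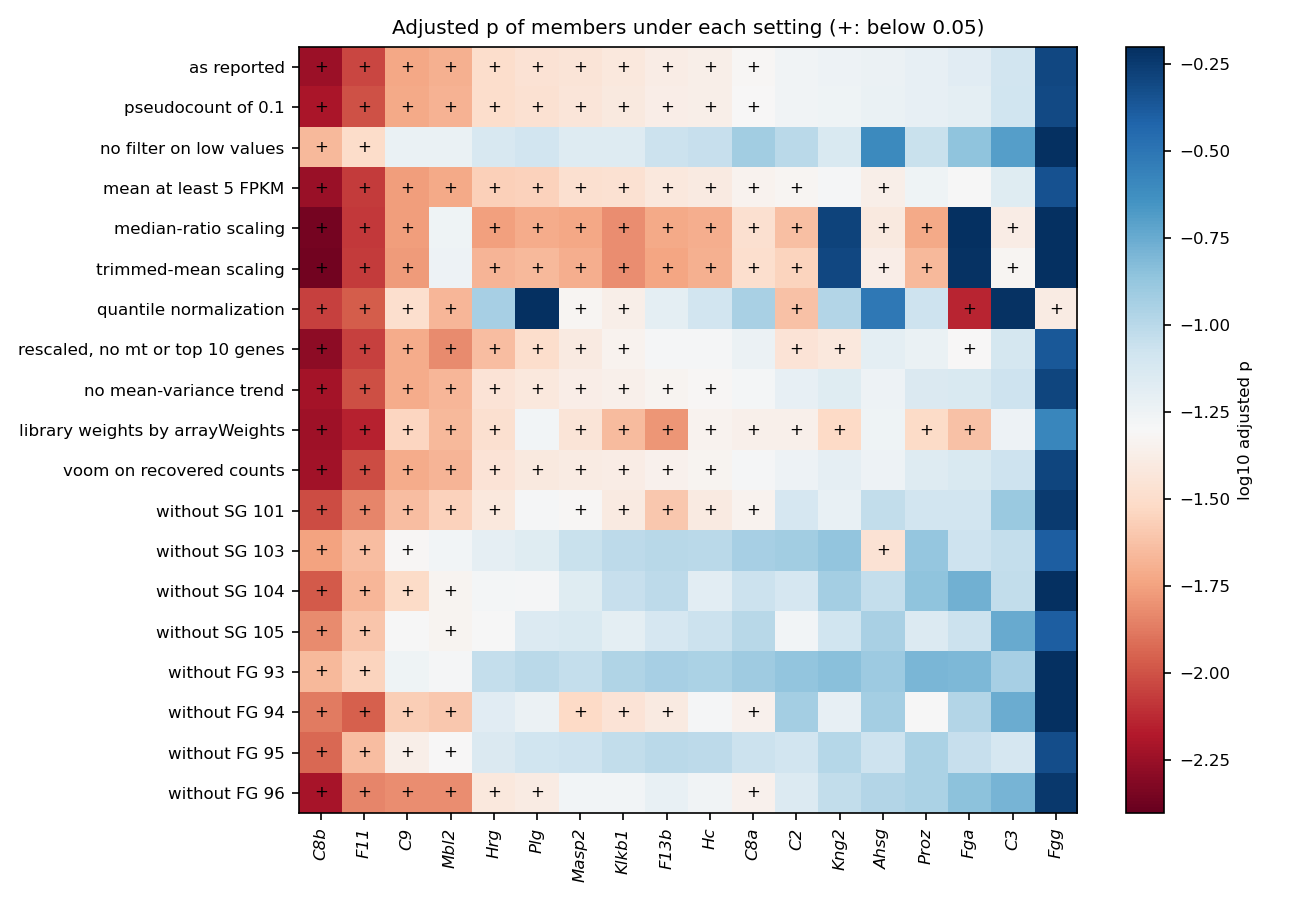
Log10 of the limma adjusted p for the 18 members called under at least 1 setting, in columns ordered by their adjusted p as reported, with one row per setting. Red is below and blue above 0.05, and a plus marks a call. C8b and F11 carry a plus in every row; most other columns lose it when FG 93, SG 103, SG 104 or SG 105 is left out.

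Counts for related gene lists are read against all tested genes, of which 3.73% rose and 15.6% fell. Of 11 tested other complement components and regulators, 2 fell and none rose: C1rl, a C1r-like protease, by 0.56 and Cpn1, the carboxypeptidase N catalytic subunit that trims anaphylatoxins, by 0.45 in log2 units (limma adjusted p = 0.0152 and 0.0151). Both lost the call after median-ratio scaling (adjusted p = 0.0744 and 0.101). None of 5 tested complement receptors and membrane regulators was called; Vsig4 was the most abundant and had a log2 fold change of 0.06. Of 6 tested other coagulation components, 1 fell: Hgfac, the hepatocyte growth factor activator, by 0.36 (limma adjusted p = 0.032, and 0.307 after median-ratio scaling). Among 5 tested serpin inhibitors, 1 rose: Serpinf2, the plasmin inhibitor alpha-2-antiplasmin, which averaged 361 ± 56.6 FPKM in SG and 221 ± 17.5 FPKM in FG livers (log2 fold change 0.70, limma adjusted p = 0.00801). Serpinc1 (antithrombin) had a log2 fold change of -0.03 (limma adjusted p = 0.846).

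Genes for vitamin K dependent carboxylation and for export of clotting factors from the endoplasmic reticulum fell in 4 of 7 tested members and rose in none, against 15.6% of all tested genes lower. Lman1 and Mcfd2 encode the cargo receptor of factors V and VIII. Lman1 averaged 59.5 ± 5.16 FPKM in SG and 91.3 ± 3.79 FPKM in FG livers (log2 fold change -0.61, limma adjusted p = 0.00343). Mcfd2 averaged 64.9 ± 4.46 FPKM in SG and 86.4 ± 11.99 FPKM in FG livers (limma adjusted p = 0.0344, and 0.215 after median-ratio scaling). Vkorc1l1, a vitamin K epoxide reductase, fell by 0.58 (limma adjusted p = 0.00375), and Calu, calumenin, by 0.35 (limma adjusted p = 0.0202, and 0.167 after median-ratio scaling). With that scaling 2 of the 7 fell, Lman1 and Vkorc1l1. Both kept the call in all 18 alternatives, Calu in 12 and Mcfd2 in 9. Ggcx, Vkorc1 and Furin, the other tested genes of this list, were not called. Their log2 fold changes were -0.35, -0.26 and -0.20 (limma adjusted p = 0.123, 0.0794 and 0.173).

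Of 13 tested genes on a list of acute phase proteins, 2 rose and 11 were not called. Itih3, an inter-alpha-trypsin inhibitor heavy chain, averaged 290.1 ± 45.6 FPKM in SG and 155 ± 12.03 FPKM in FG livers (log2 fold change 0.89, limma adjusted p = 0.00287). Saa4 had a log2 fold change of 0.45 (limma adjusted p = 0.0391). Itih3 kept the call in all 18 alternatives, and Saa4 in 8 of 18. Of the genes known to be induced by inflammation, Saa1 averaged 27.8 ± 15.7 FPKM in SG and 12.7 ± 2.87 FPKM in FG livers without passing (log2 fold change 0.95, limma adjusted p = 0.074), and Orm1, Hp and Lcn2 had limma adjusted p = 0.367, 0.732 and 0.871. Of 15 genes for interleukin 6 signalling and liver transcription factors, 1 fell: Cebpa, which encodes C/EBP alpha, averaged 89.0 ± 8.18 FPKM in SG and 129 ± 13.2 FPKM in FG livers (log2 fold change -0.53, limma adjusted p = 0.012, and 0.0507 after median-ratio scaling). Hnf4a had a log2 fold change of 0.03 (limma adjusted p = 0.872).

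The libraries held 36545128 to 39214619 fragments in SG and 38253764 to 41977438 in FG. Hepatocyte markers were abundant in all 8, with 2 of 8 called higher in SG (Serpina1a and Apoa1), against 3.73% of all tested genes. The other 6 were not called, and the median log2 fold change of the list was 0.03. Serpina1a kept the call in all 18 alternatives. Apoa1 kept it in 8 of 18, and in 0 of the 8 fits with 1 library left out. Summed FPKM of the hepatocyte markers ran from 61935 to 77126 in SG and from 60208 to 71443 in FG. Stellate cell markers were called in 0 of 8. Summed biliary markers were lower in every SG library (13.3 to 19.4 FPKM) than in every FG library (22.2 to 28.7 FPKM). Of 2 tested members 1, Spp1, was called lower (limma adjusted p = 0.0226, and 0.0744 after median-ratio scaling). Spp1 made up most of the sum, at 12.4 ± 2.43 FPKM in SG and 19.0 ± 2.50 FPKM in FG, and its groups overlapped. Sox9, below the filter, averaged higher in SG (0.687 against 0.519 FPKM), and the other biliary markers averaged lower. Neutrophil and monocyte markers summed to 2.06 to 2.53 FPKM in SG and 3.68 to 5.63 FPKM in FG. The 1 tested member, S100a9, was called lower (limma adjusted p = 0.0298, and 0.0722 after median-ratio scaling). S100a9 lay near the filter and passed it mainly through FG, at 1.68 ± 0.340 FPKM against 0.844 ± 0.274 FPKM in SG. Its lowest library held 9 fragments, and the call was lost with limma voom on recovered fragment counts. Platelet and lymphocyte markers stayed below the filter. None of the listed markers was at 0 in all libraries. The part of these cell types in the values above was not tested.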

How the data were processed

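Liver RNA was extracted with TRIzol and sequenced as 150 bp paired reads on an Illumina NovaSeq, per the labels' protocols. The authors aligned reads with HISAT2 and deposited FPKM per gene. The submitters' processing notes also name fastp, HTSeq, DESeq2, GRCm38 and mm10, without versions. The use of strand in counting is unstated in these sources. FPKM scales each library to its own total, so a gene group that rises lowers the others.

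Deposited FPKM were tested as log2(FPKM + 1), SG minus FG, with limma 3.58.1 in R 4.3.3 (trended empirical Bayes), over genes with at least 1 FPKM in at least 4 of 8 libraries. P-values are two-sided and Benjamini-Hochberg adjusted over all tested genes, with 0.05 as threshold. Log2 fold changes understate changes of low genes. Single members also had an exact permutation test. Library totals were recovered from the FPKM steps, with GENCODE vM21 exon lengths. Scripts were tested on simulated data. Every member is described, and values per library are given for called members and those with an adjusted p below 0.1. Members and lists were chosen with earlier results of these data known. Alternatives changed the pseudocount, filter, scaling, model and libraries.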

Additional observations from a re-analysis of the deposited data

Results flagged for a closer look

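In 7 of 96 groups of 4 libraries examined, one library stood apart from the other 3 by a gap past Dixon's critical value, which chance gives in about 1 in 20 groups. These were the SG and FG groups of the 47 members and of C1rb, which is not a member. C1rb was picked by name, so its hit cannot be read against that rate. FG 93 was low for C8g, with 152 FPKM, and for F7, with 43.9 FPKM. SG 101 was high for Cfp, with 20.5 FPKM, and for C1rb, a paralog of C1ra below the filter, with 13.01 FPKM against 0.0715 to 0.307 FPKM in the other SG libraries. SG 103 was low for Mbl2, with 117 FPKM, and SG 105 was low for Proz, with 112 FPKM. FG 96 was high for Clu, with 664 FPKM.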

How the results depend on the processing

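No paired analysis was possible because the SG libraries (101, 103, 104, 105) and FG libraries (93, 94, 95, 96) share no replicate number. All genes called numbered 1912 as reported, 1133 without the filter on low values (1 complement and 1 coagulation gene), 1044 after median-ratio scaling (545 higher, 499 lower in SG), 1036 after trimmed-mean scaling (526 higher, 510 lower) and 1078 after quantile normalization (462 higher, 616 lower). The complement and coagulation medians were 0.27 and 0.25 (log2) after median-ratio scaling and 0.26 and 0.24 after trimmed-mean scaling; the median of all tested genes was then 0.006 and 0.000. With one library left out, genes called ranged from 834 (without FG 93) to 2363 (without SG 101), complement genes called in either direction from 1 to 6, coagulation genes called from 1 to 4, the complement median from 0.052 to 0.125 and the coagulation median from 0.066 to 0.105. The cause of these shifts was not tested. C8b and F11 were called in all 18 alternatives, with adjusted p up to 0.0222 and 0.0316; C9 in 15, Mbl2 in 13, Masp2 and Klkb1 in 11, Hrg in 10, F13b in 9, and Hc, C8a and Plg in 8. The fewest fragments behind a member in any library were 305, for F8.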
